A study of Mus musculus with 2 samples.

Results

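Cxcr6-positive CD8 T cells were picked out of 2 single-cell RNA libraries of immune cells from mouse melanoma lung metastases. They were chosen from their counts of unique molecular identifiers (UMIs), tags by which copies of 1 captured transcript are counted once. A barcode, the tag shared by transcripts captured together, was kept with 500 or more UMIs of which under 20% were mitochondrial. A kept barcode was called a CD8 T cell with 2 or more UMIs over Cd3d, Cd3e, Cd3g and Trac, 1 or more over Cd8a and Cd8b1, and none of Cd4 or of the B cell gene Cd79a. The Cxcr6-positive cells were those with 2 or more UMIs of Ccl5, 1 or more of Cxcr6, none of S1pr5 and Cx3cr1, and none of the proliferation genes Mki67 and Top2a. This gate held 185 cells of the C435A library and 98 cells of the WT library, 283 of the 20364 kept barcodes and of the 4586 CD8 T cells. The counts that chose the cells are the same ones described here, so the levels of the gate's genes carry no evidence of their own.

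CD8 T cells recognise peptides on MHC class I and kill target cells by releasing perforin, which opens the membrane, and granzymes, proteases that trigger cell death. Cxcr6 is the receptor of the chemokine Cxcl16 and is known from T cells that stay in tissues such as the lung, where CD69 and the integrins CD103 (Itgae) and CD49a (Itga1) hold cells in place. S1pr5 and Cx3cr1 mark effector cells that circulate in blood, and Ccr7, Il7r and Tcf7 mark naive and memory cells.

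In the C435A library the mice carried B16F10 melanoma cells with the IRF7-C435A mutation, a cysteine-to-alanine change in the interferon regulatory factor IRF7, and in the WT library they carried B16F10 cells with wild-type IRF7. The change is in the tumour line, not in the T cells. Per the labels, both libraries came from lung metastases in C57 mice, and live cells that stained for the leukocyte protein CD45 and excluded the dye 7-AAD were sorted. The sources used here give neither how many mice went into a library nor their age.

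With 1 library per group there was no replicate and no test between groups, and no p-value is given. The libraries held 59615672 UMIs in 10373 barcodes (C435A) and 54934397 UMIs in 10156 barcodes (WT), and 24 barcode sequences occurred in both, none of them among the Cxcr6-positive cells. Summed over the Cxcr6-positive cells there were 906168 UMIs in C435A and 389891 in WT, with a median of 4376 UMIs per cell in C435A and 3296 in WT. Levels are given as counts per 1000000 UMIs of the summed cells (CPM), and differences as the log2 ratio of 2 such levels. The 95% intervals, exact for sums and shares, cover counting error only, and not the spread between mice.

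Some barcodes carried RNA of other cells as well. In 8 of 185 C435A cells and 10 of 98 WT cells, 20 or more UMIs came from B cell, monocyte and macrophage, neutrophil, melanoma, red cell or dendritic cell genes. These mixed barcodes, defined after the data had been seen, had a median of 14493 UMIs in C435A and 8770 in WT. The gene ratios, the list counts, the share of Cxcr6-positive cells and the shares of them with a UMI were therefore also computed without them. This was not done for the levels listed across the CD8 gates, the sets at the gate's thresholds, the number of granzymes per cell and the sets with and without a granzyme UMI. The 11 B cell genes summed to 1724 CPM in C435A and 4894 CPM in WT, and without the mixed barcodes to 839 and 1356 CPM. The 16 monocyte and macrophage genes summed to 4109 CPM in C435A and 5779 CPM in WT, and without the mixed barcodes to 535 and 1202 CPM. The 7 neutrophil genes summed to 46.3 and 413 CPM, the 10 melanoma genes to 43.0 and 267 CPM, the 8 NK cell genes to 381 and 567 CPM and the 7 genes of CD4 and regulatory T cells to 75.0 and 139 CPM, with Foxp3 at 0 in both. Of the 6 gamma delta T cell genes in the files, 5 were at 0 in both libraries. The 7 red cell and platelet genes summed to 22.1 and 46.2 CPM and the 7 lung epithelial and endothelial genes to 32.0 and 46.2 CPM, with Sftpc, Cdh5 and Cldn5 at 0 in both. All but the gamma delta list were higher in WT, and their part in the results below was not tested beyond leaving out the mixed barcodes and the settings given at the end.

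The label of these cells, tissue-type effector CD8 T cells, comes with 4 markers, of which the gate itself used Cd8a, Cxcr6 and Ccl5, so that Ccl4 alone could check it. Cd8a was found in 170 C435A cells (91.9%) and 82 WT cells (83.7%). Cxcr6 lay at 486 CPM in C435A and 480 CPM in WT, with 1 to 12 UMIs per cell in C435A (median 2) and 1 to 8 in WT (median 1.5). Ccl5, a chemokine of activated T cells, reached 15196 CPM in C435A and 11996 CPM in WT, with medians of 54 and 34 UMIs per cell. Ccl4, another chemokine of activated T cells and the only marker outside the gate, was found in 64 C435A cells (34.6%) and 35 WT cells (35.7%). After each cell was thinned to 1000 UMIs, so that depth was equal, Ccl4 was found in 12.7% of 181 C435A cells and 20.4% of 98 WT cells. Among B cells it was found in 1.32% in C435A and 1.02% in WT. Its level was no higher than in the circulating-type cells described below (258 CPM in Cxcr6-positive and 339 CPM in circulating-type cells of C435A, and 287 and 324 CPM in WT). Since Ccl4 did not set these cells apart and the other markers were fixed by the gate, the cells are called by their receptor here.

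Of the C435A cells, 84 had 1 Cxcr6 UMI and 101 had 2 or more, and of the WT cells 49 had 1 and 49 had 2 or more. In C435A, Gzma stood at 2260 CPM in the cells with 1 Cxcr6 UMI and 1662 CPM in those with more, and at 1154 CPM in the 258 cells just outside with no Cxcr6 UMI. In WT it stood at 585 CPM in both sets inside the gate, and at 305 CPM in the 170 cells just outside. Gzmb stood at 690 and 660 CPM in those sets inside the gate in C435A, and at 129 and 356 CPM in WT. Ccl5 was at its lowest permitted values, 2 or 3 UMIs, in 12 C435A cells and 5 WT cells, where Gzma stood at 39.7 CPM in C435A and 0 CPM in WT, against 2091 and 616 CPM in the cells with more Ccl5. The cells with Cxcr6 but 0 or 1 Ccl5 UMIs, 72 in C435A and 290 in WT, had little Gzma (45.2 CPM in C435A and 7.60 CPM in WT) and much Il7r (497 and 413 CPM).

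Cxcr6-positive cells as gated, with 2 or more Ccl5 UMIs, made up a larger share of the CD8 T cells in the C435A library. They were 7.51% of 2464 CD8 T cells in C435A (6.50 to 8.62%) and 4.62% of 2122 in WT (3.77 to 5.60%), a difference of 2.89 percentage points. Of all kept barcodes they were 1.79% in C435A and 0.975% in WT. The cells with Cxcr6 but 0 or 1 Ccl5 UMIs, 72 in C435A and 290 in WT, are not counted here. The larger share in C435A is thus no statement about all CD8 T cells with Cxcr6. The other CD8 T cells differed far more: naive-type cells, with a naive cell marker such as Ccr7 and no Ccl5, were 11.4% in C435A and 42.5% in WT, and cycling cells, with a UMI of Mki67 or Top2a, were 43.3% in C435A and 9.90% in WT. The same gated cells, still with 2 or more Ccl5 UMIs, were also set over all non-cycling CD8 T cells, with any Ccl5 count. There they were 13.3% in C435A and 5.13% in WT, a difference of 8.13 points (6.13 to 10.2). Among non-cycling CD8 T cells with 2 or more Ccl5 UMIs, the larger share in C435A was no longer seen. There the Cxcr6-positive cells were 21.97% of 842 in C435A (19.2 to 24.9%) and 23.3% of 421 in WT (19.3 to 27.6%), a difference of -1.31 points whose interval included 0 (-6.34 to 3.47). Within the same set, cells with S1pr5 or Cx3cr1 and no Cxcr6, called circulating-type here, were 30.0% in C435A and 23.3% in WT, and cells with neither marker were 30.6% in C435A and 40.4% in WT. The difference in the share of Cxcr6-positive cells thus moved with the denominator.

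**Figure D1:**
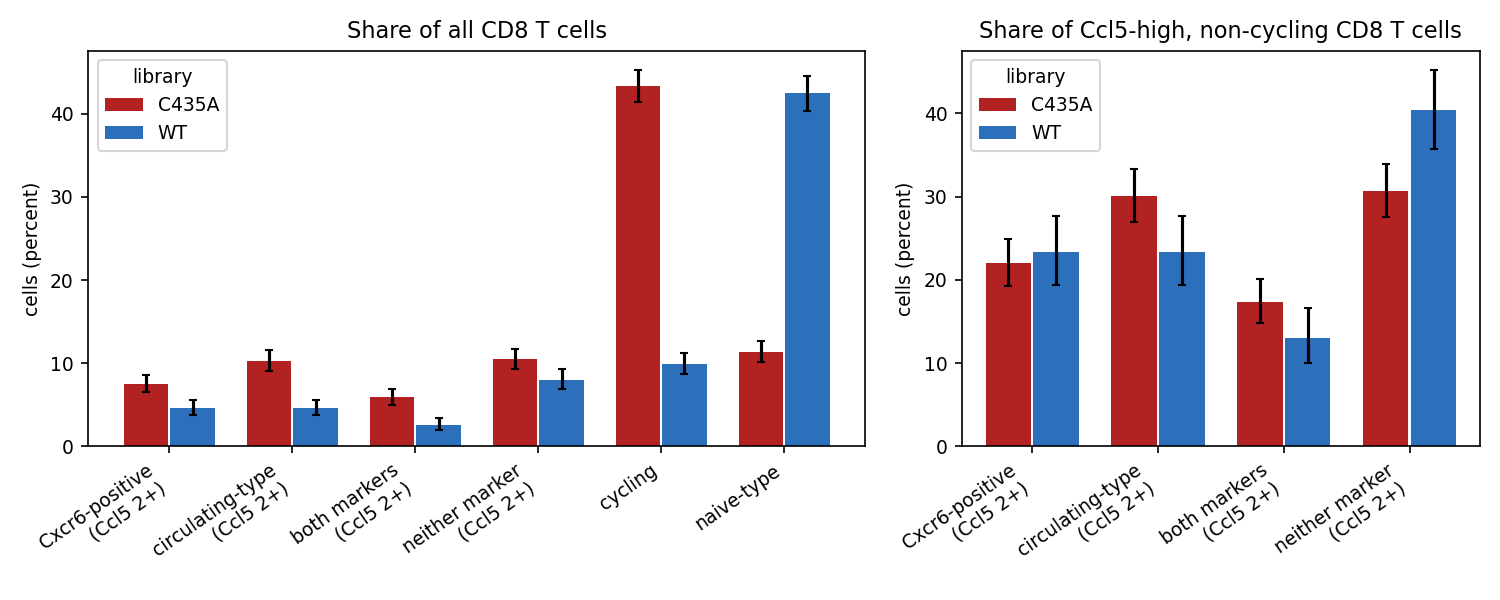
Share of cells (percent) in each CD8 T cell gate, C435A (red) left of WT (blue), with exact 95% intervals for counting error, over all CD8 T cells (left) and over non-cycling CD8 T cells with 2 or more Ccl5 UMIs (right). Cxcr6-positive cells, all with 2 or more Ccl5 UMIs, were 7.51% in C435A and 4.62% in WT on the left, and 21.97% and 23.3% on the right.

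The gate's other side is the circulating-type gate, which held 253 C435A cells and 98 WT cells, and the Cxcr6-positive cells were set against it within each library. Since the gates themselves were drawn on Cxcr6, S1pr5 and Cx3cr1, differences between them are a description. They carried more RNA of lymphoid homing and costimulatory genes and less of Gzma and of the effector regulator Zeb2. Of genes with 20 or more UMIs over both gates, 776 of 7961 (9.75%) were 1.5-fold or more higher and 968 (12.2%) lower in C435A, and 659 of 5655 (11.7%) higher and 1086 (19.2%) lower in WT. In both libraries together 121 of 5595 genes (2.16%) were higher and 272 (4.86%) lower, and the gene list counts for both libraries below are to be read beside these shares. The circulating-type gate held 27 mixed barcodes in C435A and 17 in WT, and the counts were repeated without the mixed barcodes of both gates. In C435A 11.5% of genes were then higher and 9.8% lower, in WT 14.8% higher and 18.8% lower, and in both libraries together 119 of 3869 genes (3.08%) higher and 130 (3.36%) lower.

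Among receptors that guide migration, Cxcr3, which binds the interferon-induced chemokines Cxcl9 and Cxcl10, was higher in both libraries. It stood at 295 CPM in Cxcr6-positive and 95.7 CPM in circulating-type cells of C435A, a log2 ratio of 1.62 (1.30 to 1.95), and at 249 and 66.6 CPM in WT, a log2 ratio of 1.90 (1.30 to 2.54). Gpr183, an oxysterol receptor that positions lymphocytes, was at 108 CPM in Cxcr6-positive and 26.0 CPM in circulating-type cells of C435A and at 144 and 22.2 CPM in WT. Ccr2, a receptor of monocyte-attracting chemokines, went in opposite directions, with log2 ratios of 0.86 in C435A and -0.87 in WT. Without the mixed barcodes its log2 ratio in WT was 0.37 (-0.38 to 1.14) and that in C435A 1.00, so the WT value turned on the 10 and 17 mixed barcodes of those gates. Of 6 measured chemokine receptors, Cxcr3 and Ccr7 were higher and Cxcr4 lower in both libraries.

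Some genes of resting and memory cells were higher as well, and others were not. Il7r, the receptor of the survival cytokine IL-7, stood at 189 CPM in Cxcr6-positive and 60.5 CPM in circulating-type cells of C435A and at 426 and 140 CPM in WT. Tcf7, the transcription factor TCF-1 of naive and memory T cells, had log2 ratios of 1.12 in C435A and 1.17 in WT, and Ltb, a cytokine of lymphoid organisation, 1.64 and 1.60. Of 14 measured naive and memory genes, 5 (among them Ccr7, Tcf7, Il7r and Dapl1) were higher and 1 (Il6ra) lower in both libraries. Klf2, a transcription factor of quiescence and of tissue exit, stood at 212 CPM in Cxcr6-positive and 542 CPM in circulating-type cells of C435A and at 480 and 660 CPM in WT, and without the mixed barcodes Klf2 and Txk, a T cell kinase, were lower in both libraries. The costimulatory receptors Cd28, Cd27 and Icos were higher in both libraries, and none of the 13 measured genes of that list was lower in both. Cd28 had log2 ratios of 1.09 (0.84 to 1.33) in C435A and 1.37 (0.73 to 2.04) in WT.

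Genes of tissue residence went both ways. Of 14 measured, 3 were higher in both libraries (Itga1, Ppp1r16b and Isg20) and 3 lower (Bhlhe40, Nr4a1 and Nr4a2), against 2.16% of all genes higher and 4.86% lower. Without the mixed barcodes 6 of 16 were higher and 3 lower in C435A, and 3 of 13 higher and 5 lower in WT. Itga1, which encodes the collagen-binding integrin CD49a, stood at 65.1 CPM in Cxcr6-positive and 28.6 CPM in circulating-type cells of C435A and at 126 and 28.9 CPM in WT. Itgae, which encodes CD103, had 15 UMIs over all Cxcr6-positive cells of C435A and 11 over those of WT. Cd69 was higher by less than 1.5-fold in C435A (log2 ratio 0.58) and by more in WT (0.66), and Zfp683, which encodes the residence factor Hobit, had 1 UMI in C435A and 0 in WT. Itgae and Zfp683 were thus too thinly counted to tell more.

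Of the killing genes, Gzma and Gzmb were lower in both libraries. Gzma stood at 1920 CPM in Cxcr6-positive and 9986 CPM in circulating-type cells of C435A, a log2 ratio of -2.38 (-2.45 to -2.31), and at 585 and 5683 CPM in WT, a log2 ratio of -3.28 (-3.48 to -3.08). Gzmb had log2 ratios of -0.80 in C435A and -1.41 in WT, and Gzmk, a granzyme of early effector and memory cells, 0.30 in C435A and -0.41 in WT. Of 16 measured cytotoxic genes, Gzma and Gzmb were lower and 1, the protease Ctsw, was higher in both libraries. Without the mixed barcodes Prf1 (perforin), Ctsc and Serpinb9 were lower in both as well.

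The regulators and receptors of terminal effector cells followed. Zeb2, a transcription factor of terminal effector cells, stood at 86.1 CPM in Cxcr6-positive and 459 CPM in circulating-type cells of C435A and at 105 and 651 CPM in WT, and without the mixed barcodes its log2 ratios were -3.09 and -4.58. Tbx21, which encodes the effector regulator T-bet, had log2 ratios of -1.29 in C435A and -1.19 in WT. Klrg1, an inhibitory lectin of terminal effector cells, had -2.07 in C435A and -2.98 in WT. Of 11 measured NK-type genes, 5 were lower in both libraries, among them Klre1 (-2.41 in C435A and -2.04 in WT), and 1, the chemokine Xcl1, was higher. Of 37 measured type I interferon response genes, 8 were higher and none lower in both libraries, among them Isg20, Ifit3 and Ly6a.

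The other genes named by the ranking rule were Ctla2a, Shisa5 and Rapgef6 among the higher, and Retnlg, S100a8, S100a9, Fcgr2b, Apoe, Spp1, Lyn and Arg1 among the lower, which are myeloid genes. When the mixed barcodes were left out, none of those 8 was named again, and the lower genes were led by Zeb2, Gzma, Klre1, Klrg1 and Lgals1.

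**Figure D2:**
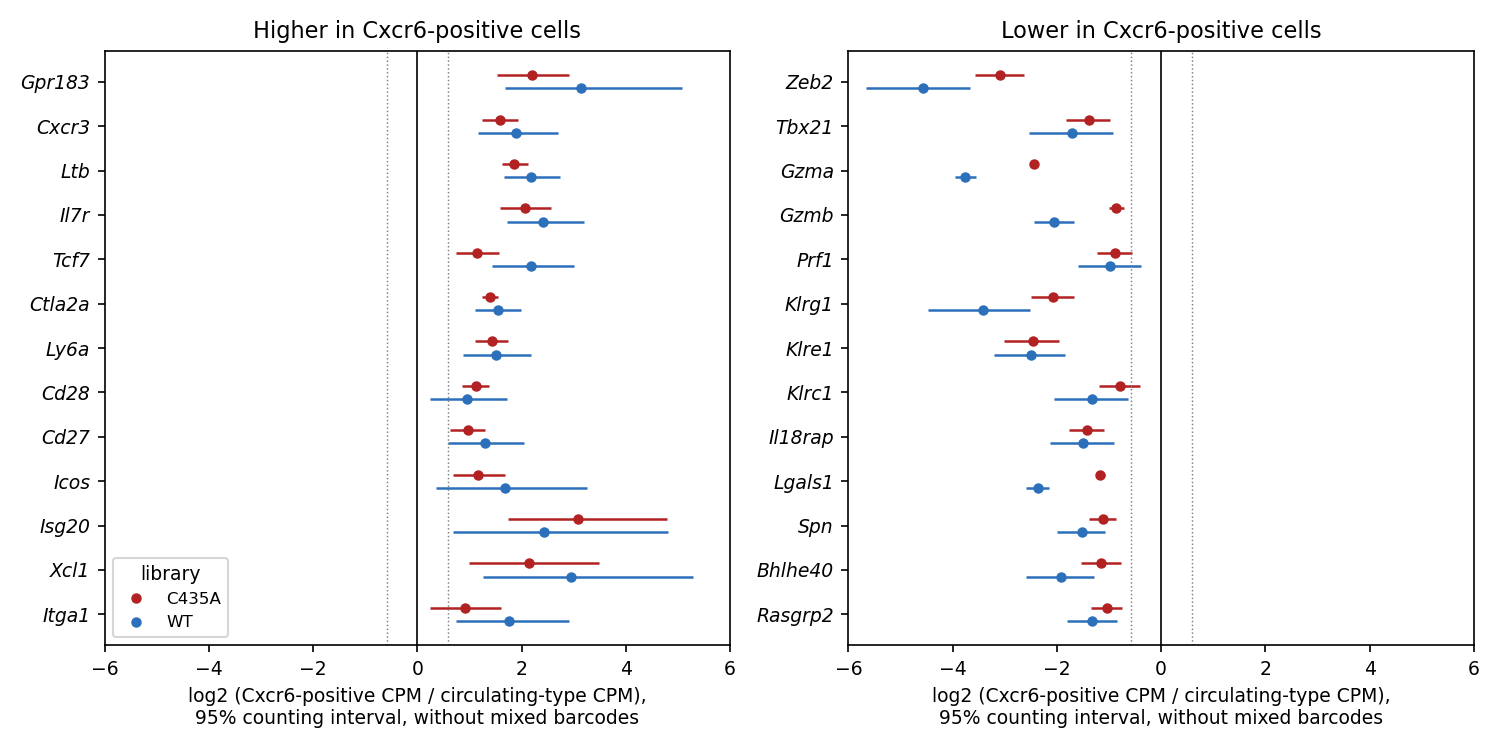
Log2 ratio of the CPM level in Cxcr6-positive cells over that in circulating-type cells, within C435A (red) and within WT (blue), without the mixed barcodes, with 95% counting intervals and dotted lines at 1.5-fold. Gpr183, Cxcr3, Ltb and Il7r lie right of 0 in both libraries, and Zeb2 (-3.09 in C435A and -4.58 in WT) and Gzma lie left of it.

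Between the libraries the Cxcr6-positive cells differed in their granzymes. In C435A, 26 of 185 cells (14.1%, 9.39 to 19.9%) had no UMI of Gzma, Gzmb or Gzmk, against 55 of 98 WT cells (56.1%, 45.7 to 66.1%). At the other end, 65 C435A cells (35.1%) and 8 WT cells (8.16%) had all 3. Each of the 3 differed, with Gzma in 111 of 185 C435A and 21 of 98 WT cells, Gzmb in 93 and 16, and Gzmk in 132 and 34. Cells with Gzmk and neither Gzma nor Gzmb were 30 in C435A (16.2%) and 18 in WT (18.4%). The WT cells were shallower, and after thinning to 1000 UMIs any of the 3 granzymes was found in 61.9% of 181 C435A cells and 31.6% of 98 WT cells, a difference of 30.2 percentage points (18.1 to 41.0). In B cells the thinned share was 6.50% in C435A and 1.71% in WT. Whether granzyme UMIs there came from free RNA or from another cell under the same barcode was not tested. Circulating-type cells without a granzyme UMI were 4.35% in C435A and 18.4% in WT.

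**Figure D3:**
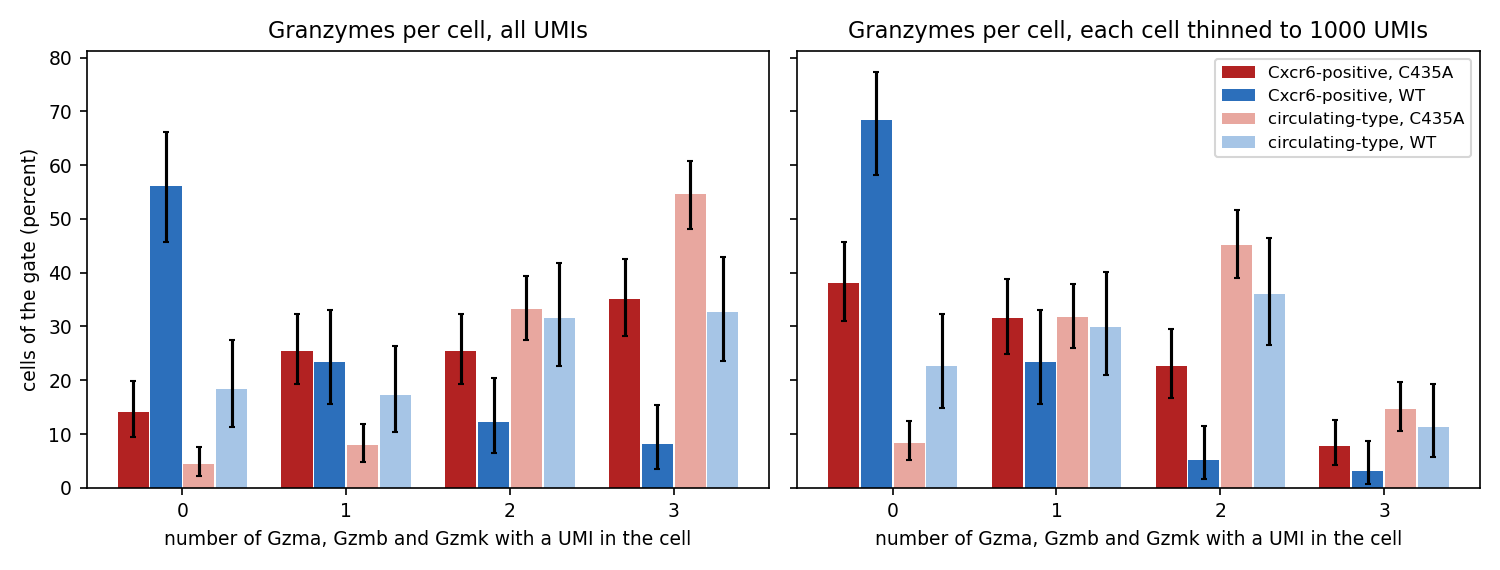
Percent of cells with UMIs of none, 1, 2 or all 3 of Gzma, Gzmb and Gzmk, for Cxcr6-positive (dark) and circulating-type cells (pale), C435A red and WT blue, with exact 95% intervals, from all UMIs (left) and after thinning to 1000 UMIs (right). Cells with none are 14.1% in C435A and 56.1% in WT among the Cxcr6-positive cells on the left, and 38.1% and 68.4% on the right.

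The cells without a granzyme UMI carried more Il7r and Tcf7 in both libraries. In C435A, Il7r stood at 392 CPM in the 26 cells without and 155 CPM in the 159 cells with a granzyme UMI, and in WT at 597 and 176 CPM. Tcf7 stood at 315 CPM without and 171 CPM with a granzyme UMI in C435A, and at 377 and 189 CPM in WT. Ccl5 was 6845 CPM without and 16597 CPM with in C435A, and 8226 and 17474 CPM in WT. Within cells that had a granzyme UMI, the levels of Il7r and Tcf7 in C435A and WT thus lay close together. Those of Ccl5 did too, but Ccl5 is a gene of the gate. Other genes differed there (S100a6 at 3323 CPM in C435A and 1737 CPM in WT, Hspa1a at 115 and 378 CPM, and Lef1 at 147 and 62.9 CPM). The number of such cells was 159 in C435A and 43 in WT. Depth differed between the sets in opposite directions. The median was 3507.5 UMIs per cell without and 4532 with a granzyme UMI in C435A, and 3579 and 3095 in WT. These sets were drawn on a measured value, and cells of 1 library are not replicates.

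As levels, 1052 of 6715 genes with 20 or more UMIs were 1.5-fold or more higher in C435A than in WT Cxcr6-positive cells (15.7%) and 917 lower (13.7%), with a median log2 ratio over all genes of 0.05. Without the mixed barcodes they were 1094 of 5998 (18.2%) and 835 (13.9%). The gene list counts for C435A over WT that follow are to be read beside these shares. Gzma stood at 1920 CPM in C435A and 585 CPM in WT, a log2 ratio of 1.72 (1.52 to 1.92). Of the 228 WT UMIs, 76 came from 1 cell. Gzmb stood at 673 CPM in C435A and 221 CPM in WT, a log2 ratio of 1.61 (1.28 to 1.95), and 38 of its 86 WT UMIs came from 1 cell. Gzmk stood at 394 CPM in C435A and 159 CPM in WT, a log2 ratio of 1.31 (0.92 to 1.72). Prf1, which encodes perforin, stood at 125 CPM in C435A and 115 CPM in WT, with an interval of the log2 ratio from -0.40 to 0.64. Of 16 measured cytotoxic genes, 6 were higher in C435A (Gzma, Gzmb, Gzmk, Gzmm, Fasl and Cst7) and 1 lower (the lysosomal protein Lamp1), with a median log2 ratio of 0.44. Without the mixed barcodes 6 of 16 were higher and none lower.

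The cytokines did not go with the granzymes. Of 10 measured, none was higher and 3 were lower in C435A (Ccl9, Xcl1 and Spp1), with a median log2 ratio of -0.45. Spp1 is also a macrophage gene, and 58.6% of its WT UMIs came from 1 cell. Ifng, the gene of interferon gamma, stood at 73.9 CPM in C435A and 103 CPM in WT, with an interval of the log2 ratio from -1.06 to 0.13. Ccl4 stood at 258 CPM in C435A and 287 CPM in WT, and Xcl1, which attracts cross-presenting dendritic cells, at 33.1 and 79.5 CPM, a log2 ratio of -1.26 (-2.04 to -0.49). The UMIs of Xcl1 lay in 17 of 185 C435A and 11 of 98 WT cells. After thinning, Xcl1 was found in 2.21% of C435A and 4.08% of WT cells, with an interval of the difference from -7.97 to 2.29 points.

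Among genes of migration and adhesion the chemokine receptor Ccr2 and the integrin Itga4 were higher in C435A. Ccr2 stood at 341 CPM in C435A and 131 CPM in WT, a log2 ratio of 1.38 (0.95 to 1.84). After thinning, Ccr2 was found in 23.8% of C435A cells and 8.16% of WT cells, against 0.66% and 1.02% of B cells. Cxcr3 stood at 295 CPM in C435A and 249 CPM in WT, with an interval that included 0 (-0.10 to 0.59). Cxcr6 itself had a log2 ratio of 0.02 (-0.23 to 0.27), but the gate required Cxcr6 in every cell, so its ratio is no result. Itga4, an integrin chain used to enter inflamed tissue, was higher at 748 CPM in C435A and 444 CPM in WT. Itga1 was lower at 65.1 CPM in C435A and 126 CPM in WT, a log2 ratio of -0.95 (-1.52 to -0.37). Of 8 measured chemokine receptors 3 were higher (among them Ccr2 and Ccr9) and 2 lower (Ccr1 and Ccr7). Of 18 measured residence genes 1 was higher (P2rx7) and 4 lower (Itgae, Itga1, Vps37b and Isg20). No residence gene had an interval wholly above 0, and Itgae was thinly counted (16.6 CPM in C435A and 28.2 CPM in WT). Without the mixed barcodes 2 of 15 residence genes were higher and 3 lower, and their median log2 ratio went from -0.13 to 0.07. Of 20 genes of circulation and exit 3 were higher (Klrg1, Itgb7 and Itga4) and 5 lower (among them S1pr1, Klf2, Ccr7 and Tcf7). Over all genes 15.7% were higher and 13.7% lower, so 3 of 20 higher lay near the share of all genes.

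Several actin, S100 and galectin genes, which are raised in effector T cells, were higher in C435A. S100a6, a calcium-binding protein, stood at 3052 CPM in C435A and 1188 CPM in WT, a log2 ratio of 1.36 (1.22 to 1.51), and Lgals1, which encodes galectin-1, at 1635 and 677 CPM, a log2 ratio of 1.27 (1.08 to 1.47). Of 22 measured genes of this list 11 were higher and 3 lower (Lgals3, Anxa1 and Anxa5), with a median log2 ratio of 0.57, and without the mixed barcodes 15 of 21 were higher and none lower. Actin gamma (Actg1) stood at 5213 CPM in C435A and 2819 CPM in WT, where 165 of its 1099 UMIs came from 1 cell. Plac8 stood at 1642 CPM in C435A and 610 CPM in WT, and after thinning in 68.0% of C435A and 35.7% of WT cells. In B cells Plac8 was found in 44.7% of C435A and 32.7% of WT cells, so the share in WT Cxcr6-positive cells lay near that of B cells. Rbm3, a cold-induced RNA-binding protein, stood at 1641 CPM in C435A and 628 CPM in WT, and Fhl2, a LIM-domain protein, had 53 UMIs in C435A and 3 in WT.

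Costimulatory and inhibitory receptors differed in a few members. Cd28 stood at 400 CPM in C435A and 172 CPM in WT, a log2 ratio of 1.22 (0.84 to 1.62), and after thinning in 32.0% of C435A and 16.3% of WT cells. Of 15 measured costimulatory genes 4 were higher (Icos, Cd28, Cd226 and Cd44) and 1 lower (Tnfrsf4). Without the mixed barcodes 3 of 14 costimulatory genes were higher and none lower. Of 11 inhibitory genes 2 were higher and none lower, a share near the 15.7% of all genes that were higher. Without the mixed barcodes 3 of 9 inhibitory genes were higher and none lower, against 18.2% of all genes higher. With the mixed barcodes in, the 2 higher inhibitory genes were Ctla4 and Cd160. Ctla4 had 54 UMIs in C435A and 7 in WT, and Cd160 stood at 117 CPM in C435A and 59.0 CPM in WT. After thinning, Ctla4 was found in 4.97% of C435A and 3.06% of WT cells, with an interval of the difference from -4.12 to 6.57 points. B cells also had more Ctla4 in C435A (27.8 CPM, against 8.02 CPM in WT). Cd160 was found after thinning in 13.3% of C435A and 3.06% of WT cells. Pdcd1, which encodes PD-1, had only 22 UMIs in C435A and 9 in WT, and the interval of its log2 ratio ran from -1.10 to 1.38. Klrg1 was at 66.2 CPM in C435A and 28.2 CPM in WT, a log2 ratio of 1.23 (0.29 to 2.31). Of 10 NK-type genes measured 2 were higher and 5 lower, and without the mixed barcodes 2 and 3. Over all genes 13.7% were lower, and 13.9% without the mixed barcodes. Klrk1, which encodes NKG2D, stood at 151 CPM in C435A and 233 CPM in WT.

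Some cell cycle genes were higher in C435A although cells with Mki67 or Top2a had been gated out. Ube2c, a ubiquitin-conjugating enzyme of mitotic exit, had 76 UMIs in 45 C435A cells and 1 UMI in 1 WT cell, a log2 ratio of 5.03 (2.51 to 10.35). After thinning it was found in 4.97% of 181 C435A cells and in 0 of 98 WT cells, and in 4.61% and 2.44% of B cells. The B cells were not gated against cycling cells, so their share is no measure of free RNA for this gene. Ccnb2, a cyclin of mitosis, had 32 UMIs in C435A and 0 in WT, and was at least 2.20 higher on the log2 scale against a floor of 3 UMIs over the WT cells. Stmn1, a regulator of microtubules, stood at 118 CPM in C435A and 41.0 CPM in WT, and the chromatin protein Hmgb2 at 928 and 400.1 CPM. Of 25 measured cell cycle genes 11 were higher and 2 lower, with a median log2 ratio of 0.45, against 15.7% of all genes higher and 13.7% lower. The C435A library also held 1068 cycling CD8 T cells against 210 in WT, and the part of RNA from them in these values was not tested.

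The naive and memory genes were lower in C435A as a list. Of 15 measured, none was higher and 11 were lower, with a median log2 ratio of -1.17, against 13.7% of all genes that were lower. Il7r stood at 189 CPM in C435A and 426 CPM in WT, a log2 ratio of -1.17 (-1.49 to -0.86). Klf2 stood at 212 CPM in C435A and 480 CPM in WT, and the survival gene Bcl2 at 101 and 256 CPM. Ccr7 stood at 23.2 CPM in C435A and 138 CPM in WT, and without the mixed barcodes at 21.4 and 70.5 CPM, with log2 ratios of -2.58 and -1.72. Tcf7 stood at 192 CPM in C435A and 300.1 CPM in WT, a log2 ratio of -0.64 (-0.99 to -0.29).

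Cells with Ccr7 or Il7r were fewer in C435A at equal depth. After thinning Ccr7 was found in 1.66% of 181 C435A cells and 8.16% of 98 WT cells, and Il7r was found in 14.4% of C435A and 28.6% of WT cells. B cells also express Ccr7 (14.6% in C435A and 17.3% in WT), but had Il7r in only 0.18% and 0.47%. The thinned share with Tcf7, 12.7% in C435A and 17.3% in WT, differed by less than counting error, with an interval of the difference from -14.2 to 3.76 points.

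**Figure D4:**
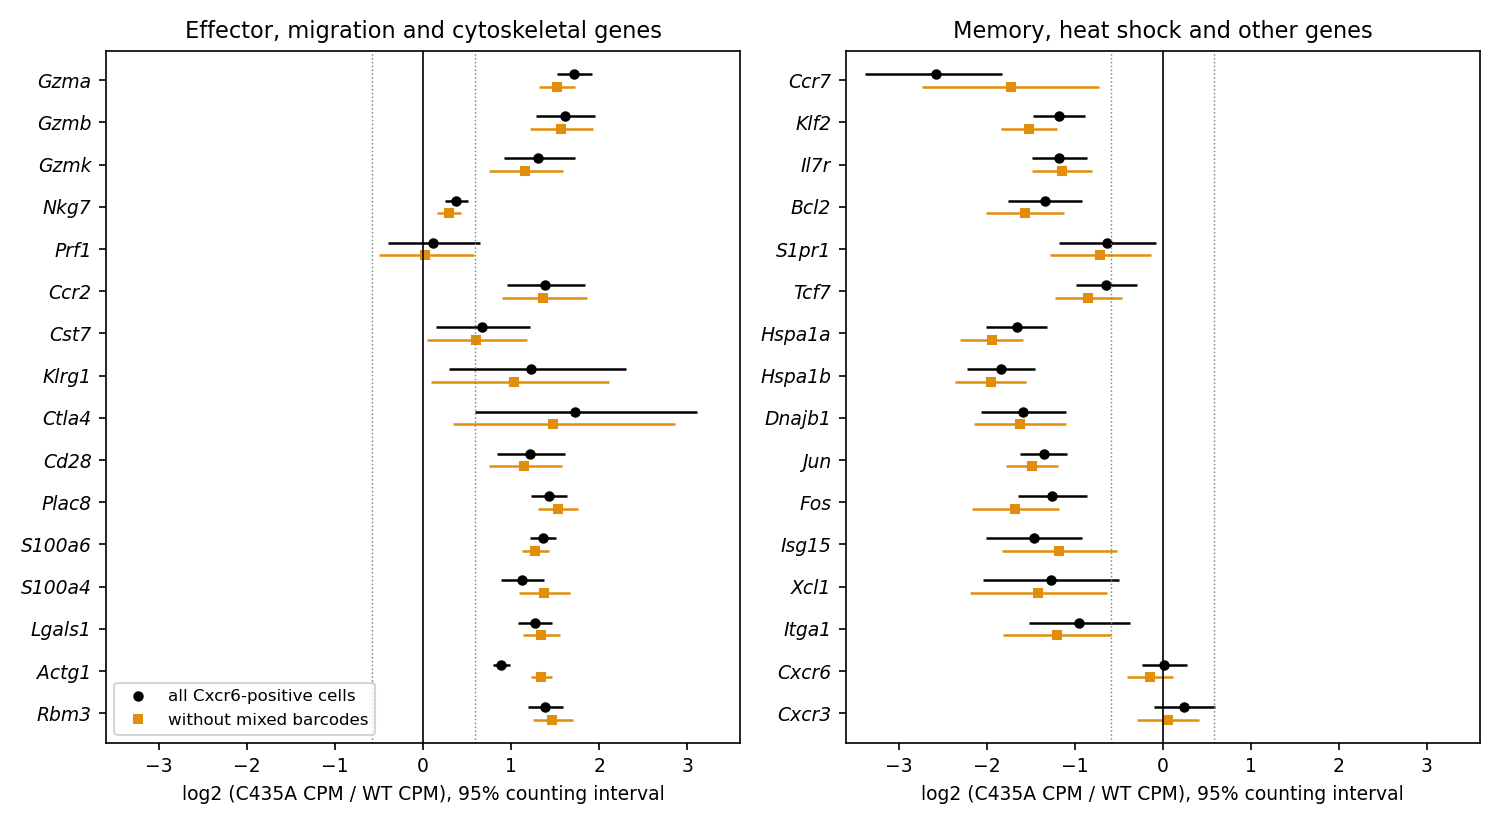
Log2 ratio of CPM levels in Cxcr6-positive cells, C435A over WT, from all cells (black) and without the mixed barcodes (orange), with 95% counting intervals and dotted lines at 1.5-fold. Gzma, Gzmb, S100a6 and Lgals1 lie above 1 with and without the mixed barcodes, Prf1 and Cxcr3 lie near 0, and Klf2, Il7r, Bcl2 and Hspa1a lie below -1. Cxcr6 is a gene of the gate, so its place near 0 is no result.

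Heat shock and immediate early genes were lower in C435A. Of 14 measured heat shock genes none was higher and 7 were lower, with a median log2 ratio of -0.59, against 13.7% of all genes that were lower. Hspa1a and Hspa1b encode the inducible chaperone HSP70 and are near-identical copies, so reads may have been split between them and their separate values are uncertain. Their promoters are printed because they show how alike the copies are and that each holds the inverted repeat GAANNTTC (in capitals) of heat shock elements, the sites bound by heat shock factor. These are the 250 bases before each gene's start, from RefSeq on GRCm38.p6, both on the minus strand, at chr17:34972157-34972406 for Hspa1a and chr17:34959239-34959488 for Hspa1b.
Hspa1a: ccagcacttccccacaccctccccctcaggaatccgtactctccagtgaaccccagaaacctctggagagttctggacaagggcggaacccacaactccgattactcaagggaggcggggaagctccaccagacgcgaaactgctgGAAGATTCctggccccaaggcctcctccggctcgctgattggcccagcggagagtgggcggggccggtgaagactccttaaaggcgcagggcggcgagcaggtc
Hspa1b: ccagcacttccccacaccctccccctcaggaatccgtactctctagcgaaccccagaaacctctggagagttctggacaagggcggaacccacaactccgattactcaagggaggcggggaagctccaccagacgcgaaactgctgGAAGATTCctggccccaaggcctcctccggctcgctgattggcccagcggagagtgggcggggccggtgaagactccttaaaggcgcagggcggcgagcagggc
The stretches are the same at 247 of 250 bases, and each holds 1 match, which reads alike on both strands and starts 104 bases before the gene. The motif was found in the same window of 2199 of 32851 RefSeq promoters (6.69%), and a match is no evidence of binding.

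Hspa1a stood at 138 CPM in C435A and 436 CPM in WT, a log2 ratio of -1.66 (-2.01 to -1.32), and Hspa1b at 106 and 377 CPM, a log2 ratio of -1.83 (-2.22 to -1.45). Dnajb1, the HSP40 partner of HSP70, had a log2 ratio of -1.58 (-2.07 to -1.10). Of 21 measured immediate early and AP-1 genes none was higher and 8 were lower, against the same 13.7%, with Jun at 244 CPM in C435A and 623 CPM in WT and Fos at 122 and 292 CPM. Fos and Jun form the transcription factor AP-1. The difference in Hspa1a ran through every gate listed here, with the mixed barcodes in. It stood at 129 CPM in C435A and 393 CPM in WT circulating-type cells, at 296 and 423 CPM in naive-type cells, at 65.9 and 217 CPM in cycling cells, and at 179 and 277 CPM in B cells. It was thus not particular to the Cxcr6-positive cells.

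Of 43 measured type I interferon response genes 2 were higher and 16 lower in C435A, with a median log2 ratio of -0.31, and without the mixed barcodes 2 and 11 of 40. Isg15 stood at 59.6 CPM in C435A and 164 CPM in WT, a log2 ratio of -1.46 (-2.01 to -0.92), and Ifit3 at 29.8 and 76.9 CPM, a log2 ratio of -1.37 (-2.17 to -0.57). Both are antiviral genes induced by interferon. After thinning, Isg15 was found in 4.42% of C435A and 10.2% of WT cells, with an interval of the difference from -13.7 to 0.32 points. Of 25 interferon gamma response genes 2 were higher and 4 lower, and of 10 MHC class I genes 1 was higher and none lower. Of 26 T cell transcription factors 1, Myb, was higher with 32 UMIs in C435A and 4 in WT, and 4 were lower (Id3, Bach2, Tcf7 and Maf). Without the mixed barcodes 4 of 25 were higher and 4 lower. Over all genes 15.7% were higher and 13.7% lower, so the 4 lower interferon gamma genes and the 4 lower transcription factors lay near the share of all genes. Glycolysis and hypoxia genes (3 higher and 3 lower of 17) and survival and cell death genes (4 and 3 of 17) went both ways, but without the mixed barcodes 6 of 15 survival and cell death genes were higher and 1 lower.

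The ranking rule also named genes that belonged to other cells. Of the 12 highest genes, Retnla, Fn1, Chil3 and Lpl had over 50% of their UMIs in mixed barcodes, and all 121 UMIs of Retnla lay in 1 C435A cell. The same held for all of the 12 lowest genes (Fscn1, Apol7c, Cxcl9, Apoe, Marcksl1, Gpnmb, Fabp5, Spp1, Cd63, S100a9, S100a8 and Tmem176a), with the 130 UMIs of Fscn1 in 4 WT cells. Without the mixed barcodes the 12 highest were Ube2c, Gzma, Plac8, Glrx, Rbm3, Actg1, Gzmb, Lgals1, S100a6, S100a4, Fhl2 and Arpc1a, of which 8 had been named before. The 12 lowest then included Hspa1a, Hspa1b, Lyz2, Klf2, Jun, Fos, Bcl2, Dnajb1, Fabp5 and Zfp652, of which Fabp5 had been named before.

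Across the CD8 gates the Cxcr6-positive cells lay between the circulating-type and the naive-type cells in Gzma and in Il7r. In C435A, Gzma stood at 1920 CPM in Cxcr6-positive, 9986 in circulating-type, 4824 in cells with both markers, 3796 in cycling, 1154 in cells with neither marker and 38.3 in naive-type cells, against 128 CPM in B cells. In WT the same gates stood at 585, 5683, 5748, 1428, 305 and 11.9 CPM, and B cells at 67.2 CPM. With the mixed barcodes in, Gzma was therefore higher in C435A in each of these gates but 1, the cells with both markers. Leaving them out took the circulating-type cells from 1191044 to 937518 UMIs in C435A and from 450297 to 228626 in WT. The summed level of 16 cytotoxic genes in circulating-type cells went from 16539 to 19030 CPM in C435A and from 11270 to 17876 CPM in WT. The Gzma and Il7r levels listed here by gate all include the mixed barcodes. In C435A, Il7r stood at 189 CPM in Cxcr6-positive, 60.5 in circulating-type, 117 in cells with both markers, 52.5 in cycling, 523 in cells with neither marker and 633 in naive-type cells. In WT it stood at 426, 140, 179, 211, 527 and 531 CPM, so the ratio between the libraries was furthest from 1 in the cycling cells and nearest to 1 in the cells with neither marker.

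**Figure D5:**
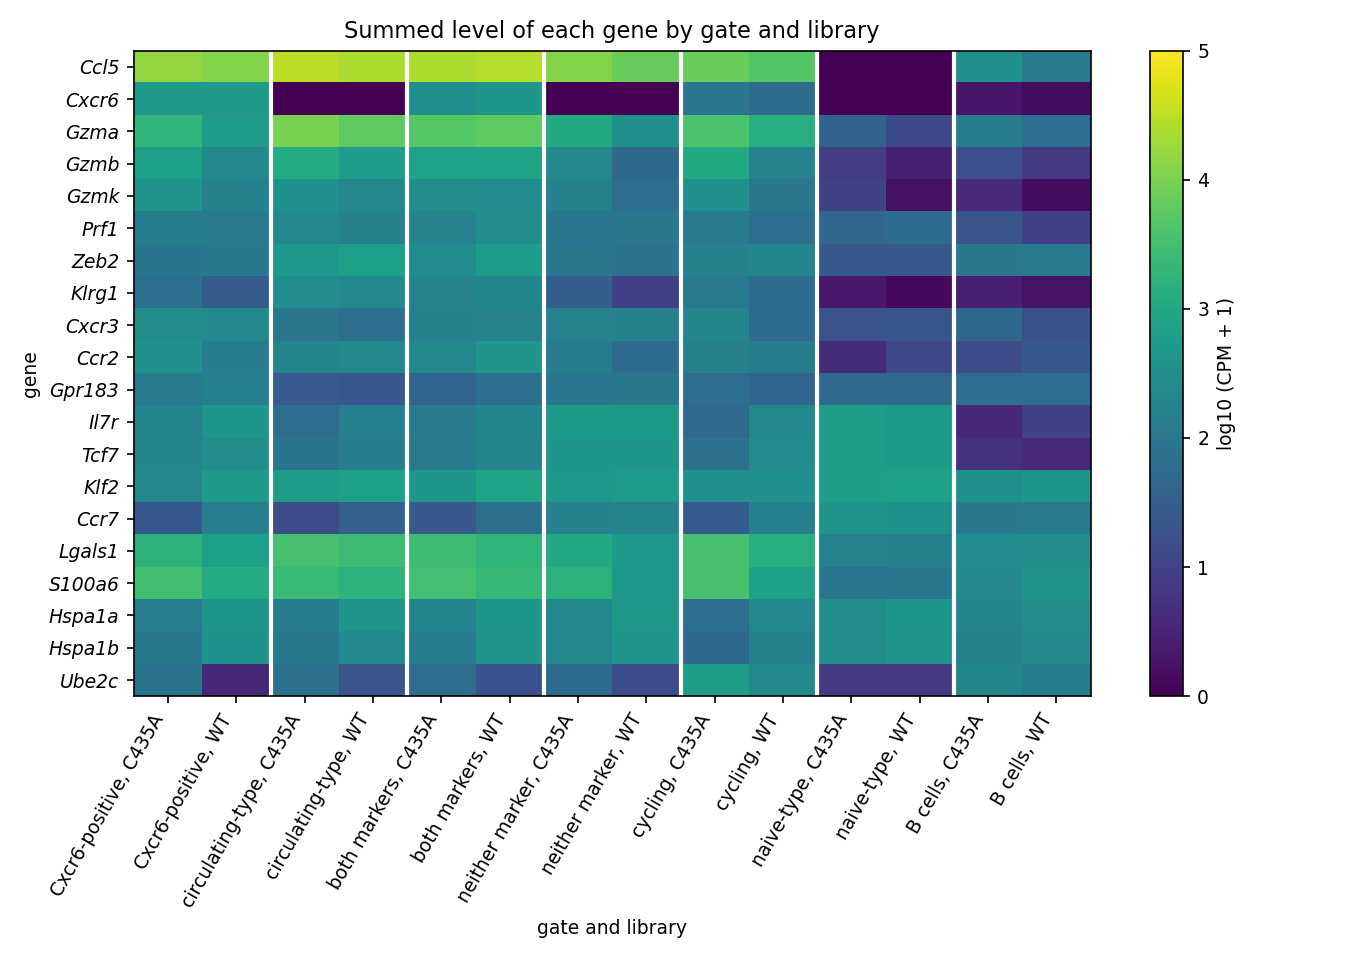
Summed level, as log10 of CPM plus 1, of 20 genes (rows) in each CD8 T cell gate and in B cells (columns), mixed barcodes included. C435A stands left of WT within each pair, and Ccl5 and Cxcr6 are set by the gates. Gzma is at 9986 CPM in C435A and 5683 CPM in WT in the circulating-type columns and at 1920 and 585 CPM in the Cxcr6-positive columns, and Il7r is highest in the naive-type columns (633 and 531 CPM).

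Other features of the cells were thinly covered. Fcer1g or Tyrobp, signalling adaptors of NK and innate-like cells, was found in 44 C435A cells (23.8%) and 32 WT cells (32.7%), and outside the mixed barcodes in 36 of 177 (20.3%) and 22 of 88 (25.0%). Zbtb16, a factor of innate-like T cells, was found in 1 C435A cell and 0 WT cells, and Trdc, the delta chain of the T cell receptor, in 3 and 1. A T cell receptor beta variable segment was found in 24 C435A cells and 9 WT cells, so clonality could not be read from these data.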

How the data were processed

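The authors deposited counts of UMIs per gene and barcode for 2 libraries of Mus musculus, and these counts were used as deposited. The genome build (GRCm38) and the counting tool (Cell Ranger) are those of the submitters' processing notes, with version 7.2.0 given per the file headers. Capture is described in the labels' protocols for 2 platforms (BD Rhapsody, and a 10x Chromium kit), so which was used is uncertain. The cells, gene lists and named genes were chosen with earlier results of these data known.

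Counts were added up within each gate and library. Ratios carry exact conditional 95% intervals, a sum of 0 was set to 3 counts, and no fold was given where both sums were at or under 3. Shares carry Clopper-Pearson intervals and differences of shares Newcombe intervals. Genes with 20 or more UMIs over both groups were counted at 1.5-fold, without the genes of the gate. Named genes had 50 or more UMIs and 50 or more CPM in 1 library, without receptor segments, gene models and mitochondrial genes. The 12 with the highest and the 12 with the lowest ratio by the interval bound nearest 0 were named. Thinning drew 1000 UMIs per cell without replacement, and left out 4 C435A cells and 0 WT cells. B cells had 3 or more UMIs over Cd79a, Cd79b and Ms4a1 and none of the 4 T cell receptor genes. Doublets were not removed from the values reported. Scrublet's own threshold called 0 barcodes in C435A and 129 in WT and was not used, and as an alternative the barcodes of highest score were removed (851 in C435A and 808 in WT). Some genes are not reported here. The mixed barcodes and the share of Ccl5-high cells were chosen after seeing the data. Another scaling moved all log2 ratios by less than 0.1. The intervals were checked on simulated counts that held counting error alone, which is what the intervals assume. That check cannot tell how they do where many UMIs of a gene lie in 1 cell.

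Python 3.11.15, NumPy 2.4.6, SciPy 1.17.1, pandas 2.3.3, scanpy 1.11.5, statsmodels 0.14.6 and matplotlib 3.10.9 were used.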

Additional observations from a re-analysis of the deposited data

How the results depend on the processing

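No paired analysis was possible because each group held 1 library. Of the difference in the share of CD8 T cells (2.89 points, C435A minus WT), 6 alternatives moved it less than its counting interval. It was 5.07 points among cells of 2000 to 8000 UMIs, 4.50 with cells of 2 or more other-cell UMIs left out, and -1.31 over Ccl5-high non-cycling cells. The share of kept barcodes (0.819 points) was 0.492 with Cxcr6 at 2 or more UMIs, 1.24 at 2000 to 8000 UMIs, 1.37 without innate-like cells, 1.65 without cells of 2 or more other-cell UMIs and 1.45 without mixed barcodes. Leaving out cells with 2 or more other-cell UMIs left 48 C435A and 7 WT cells. Genes higher in C435A (1052) were then 398 and lower (917) 286, and 6 genes were higher and 8 lower than in circulating-type cells in both libraries. There the shares with a UMI also reversed, by 2.13 points for Ccr7, 2.74 for Hspa1a and -8.81 for Cd28.

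The minimum count changed the numbers by construction. At 1 UMI, 1965 genes were higher and 1977 lower in C435A, and 375 higher and 622 lower than in circulating-type cells in both libraries. At 10 UMIs, 1565 were lower in C435A, and 223 were higher and 450 lower in both libraries. At 50 UMIs, 488 were higher and 316 lower in C435A, and 50 higher and 106 lower in both libraries. Genes lower than in circulating-type cells in both libraries (272) were 171 without the highest Scrublet scores, 134 at 2000 to 8000 UMIs, 123 without innate-like cells and 130 without mixed barcodes. With the gate applied after thinning, which left 95 C435A and 36 WT cells, 48 were higher and 64 lower.

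Log2 ratios that changed sign belonged mostly to myeloid genes. At 2000 to 8000 UMIs, C435A over WT was -0.42 for Chil3, -2.53 for Fn1 and -1.69 for Lpl, and Cxcr6-positive over circulating-type in WT was 1.70 for S100a8, 3.28 for S100a9 and 0.033 for Spp1. Without innate-like cells these were -0.45 for Chil3, 0.26 for Apoe and 0.74 for S100a8 in WT, and 0.65 for S100a9 in C435A. After thinning they were -3.38 for Chil3, 3.45 for Fcgr2b, 0.11 for Lyn, 0.44 for Spp1, 0.18 for S100a9 and -0.41 for Cd28 in WT, and 0.22 for S100a9 in C435A. Without the highest Scrublet scores S100a8 was 0.88 in WT. Without mixed barcodes they were -0.41 for Chil3, -1.90 for Lpl, 0.23 for Apoe and 0.54 for S100a8 in WT, and 0.53 for S100a9 and 0.41 for Spp1 in C435A. The cause of the other changes was not tested. Of the recomputed list medians 765 stayed within the main bounds and 26 left them. Those bounds were the medians of the single-gene bounds of a list's members, and not an interval of the list median. The count is therefore no measure of how steady the lists were. For C435A over WT the naive and memory median ran from -1.23 to -0.30 across settings, and the type I interferon median from -1.05 to 0.12. In WT, Cxcr6-positive over circulating-type, the glycolysis and hypoxia median (-0.19) was 1.21 without cells of 2 or more other-cell UMIs, and the chemokine receptor median (-0.20) was 0.83 after thinning and 0.61 at 2000 to 8000 UMIs.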
